A study of Mus musculus with 4 samples.

Results

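The genes described here encode the subunits of the mitochondrial respiratory chain and of ATP synthase, as they were counted in colon macrophages of mice given diesel exhaust particles (DEP). Members were taken by symbol: every gene starting with mt-, and every gene starting with Ndufa, Ndufb, Ndufc, Ndufs, Ndufv, Sdh, Uqcr, Cox4 to Cox8 or Atp5, without the Ndufaf assembly factors and pseudogenes. This gave 98 of the 12596 genes in the table, of which 13 lie on the mitochondrial genome and 85 on nuclear chromosomes. The prefix Sdh also took in assembly factors of complex II (Sdhaf1, Sdhaf2, Sdhaf3 and Sdhaf4).

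Male C57/Bl6N mice received 12 µg DEP in 200 µL phosphate-buffered saline (PBS) by gavage on 5 days per week for about 6 months, or PBS alone. Lamina propria cells of the colon that carried Cd11b together with Ly6c2 or Cd64 were sorted from each animal and captured in 1 well per mouse. The DEP group comprised mice 14 and 15 and the PBS group mice 2 and 3, so that each group held 2 animals. No allele was altered in any of them, and a library is 1 mouse.

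Electrons from NADH enter the chain at complex I and those from succinate at complex II, pass through complexes III and IV to oxygen, and the proton gradient they build drives ATP synthase, also called complex V. The core subunits of complexes I, III, IV and V are written partly in mitochondrial DNA, whereas complex II is wholly nuclear encoded. The mitochondrial genes are transcribed as long precursors inside the organelle, while their nuclear encoded partners are transcribed one by one and their proteins imported. Macrophages are known to change their use of respiration and glycolysis as they move between inflammatory and resident states.

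The mitochondrial members overlap each other in places, which matters for counting. On the mitochondrial chromosome of GRCm38, as annotated in GENCODE M21, mt-Atp8 (7766 to 7969) and mt-Atp6 (7927 to 8607) share 43 bases, and mt-Nd4l (9877 to 10173) and mt-Nd4 (10167 to 11544) share 7 bases, all on the plus strand and within coding sequence. The overlaps are shown with 15 bases on either side, from the GENCODE transcripts, because a read inside them belongs to both genes. Capitals mark the ATG at which the downstream gene starts.
mt-Atp8 and mt-Atp6, chrM:7912-7984, plus strand: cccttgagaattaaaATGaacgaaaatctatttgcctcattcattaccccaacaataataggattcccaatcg
mt-Nd4l and mt-Nd4, chrM:10152-10188, plus strand: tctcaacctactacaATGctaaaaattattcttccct
In retained cells mt-Atp6 had 13061 unique molecular identifiers (UMIs, 1 per captured RNA molecule) and mt-Atp8 129, a ratio of 101. For mt-Nd4 and mt-Nd4l the counts were 2372 and 220, a ratio of 10.8. Both pairs are known to be carried on shared messenger RNAs and the kit reads the 3′ end, so the counts of mt-Atp8 and mt-Nd4l cannot be read as levels of those coding sequences. The minus-strand gene mt-Nd6 (13552 to 14070) overlaps the end of mt-Nd5 (11742 to 13565). The study ran Cell Ranger with default settings apart from named alignment options, and by default only reads in the sense of a gene are counted for it.

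The table held 943 cells, 189 to 334 per mouse, of which 650 were retained. A cell was left out when it carried UMIs of 3 or more markers of a B or plasma, T, NK or innate lymphoid, epithelial, or stromal or endothelial cell. Of the 293 cells left out, 276 were removed on B or plasma markers, and 213 came from DEP mice and 80 from PBS mice. By mouse, 77 of 189 and 136 of 334 cells were left out in DEP mice 14 and 15. In PBS mice 2 and 3 these were 30 of 200 and 50 of 220. In each mouse the cells left out held more UMIs per cell than those retained. By its own reference annotation the paper set aside far fewer cells as neither monocytes nor macrophages. In all, 535 of the 943 cells carried a UMI of Igkc, an immunoglobulin light chain. Without the immunoglobulin genes among the markers only 33 cells were left out, and main values for these 910 cells or for all 943 are given below. The retained cells carried 440856 to 781008 UMIs per mouse, with medians of 2624 to 4153 per cell. Markers of the labelled cell type were present: macrophage genes summed to 72540 to 86410 CPM (UMIs scaled to the size of a library) per mouse, against 45.6 to 62.6 for T cell genes and 6.56 to 13.9 for epithelial genes. The study had already dropped cells without mitochondrial UMIs or above 7% of them, and the highest cell stood at 6.99%, so that every mitochondrial value refers to this range. Libraries shared 1 cell barcode.

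Transcripts of the 13 mitochondrial genes made up 51653 UMIs in the retained cells, and those of the 85 nuclear genes 45242. A few mitochondrial genes dominated. Mt-Atp6, a subunit of ATP synthase, took 24.7 to 25.6% of all mitochondrial UMIs per mouse, mt-Co1, the catalytic subunit of complex IV, 20.1 to 21.7%, and mt-Co3, also of complex IV, 17.3 to 19.4%. Together they accounted for 64.3%. The complex I genes mt-Nd1, mt-Nd2, mt-Nd3, mt-Nd4, mt-Nd4l, mt-Nd5 and mt-Nd6 made up 16.8 to 17.6% between them, and mt-Cytb, the mitochondrial subunit of complex III, 8.18 to 9.42%. At the low end, mt-Nd6 had 24 UMIs in 3.54% of cells. The composition varied little between mice, as the ranges show.

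Among nuclear genes, mean levels over the 4 mice ran from 1.66 to 934.9 CPM with a median of 162.9 (all gene levels are scaled by TMM, a correction for library composition, and come from 3′ ends, so 1 molecule counts once whatever its length). The 2 highest members of each complex were Ndufa2 (353 CPM) and Ndufa13 (338 CPM), accessory subunits of complex I, Sdhb (200 CPM) and Sdhd (107 CPM) of complex II, Uqcrh (557 CPM) and Uqcrb (423 CPM) of complex III, Cox4i1 (935 CPM) and Cox8a (680 CPM) of complex IV, and Atp5l (765 CPM) and Atp5e (452 CPM) of complex V. Where a subunit comes in alternative forms, these cells held mainly the ubiquitous one. Cox4i1 stood beside 3 UMIs of Cox4i2, Cox6a1 (411 CPM) beside 5 UMIs of Cox6a2, the muscle form, and Cox7a2 (283 CPM) beside 11 UMIs of Cox7a1. The related gene Cox7a2l had 365 CPM. The testis form Cox6b2 (16.5 CPM) was likewise far below Cox6b1 (556 CPM). By contrast the genes for the c ring of ATP synthase, Atp5g1 (228 CPM), Atp5g2 (217 CPM) and Atp5g3 (104 CPM), were all detected. Near-identical copies of several nuclear members exist in the genome, and reads shared with them could not be traced.

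The mitochondrial share was lower in DEP than in PBS mice, while the nuclear share overlapped. Mitochondrial genes took 2.10% of all UMIs in DEP mouse 14 and 1.75% in DEP mouse 15, against 2.20% in PBS mouse 2 and 2.35% in PBS mouse 3. Both DEP values lay below both PBS values, though mice 14 and 2 lay closer together than the 2 DEP mice. The group means were 1.93% ± 0.251 in DEP and 2.27% ± 0.104 in PBS (SD, n = 2 each), a difference of -0.347 percentage points, and -0.170 without mouse 15. Nuclear members took 1.99% and 1.87% of the UMIs that remain after removing mt- genes in DEP mice 14 and 15, and 1.81% and 1.92% in PBS mice 2 and 3. These groups overlapped, and the small difference of the means, 0.0705 points, turned to -0.0157 over all 943 cells. Per nuclear UMI there were 1.08 and 0.951 mitochondrial UMIs in DEP and 1.25 and 1.25 in PBS mice. A summed share over chosen members was not tested.

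**Figure D1:**
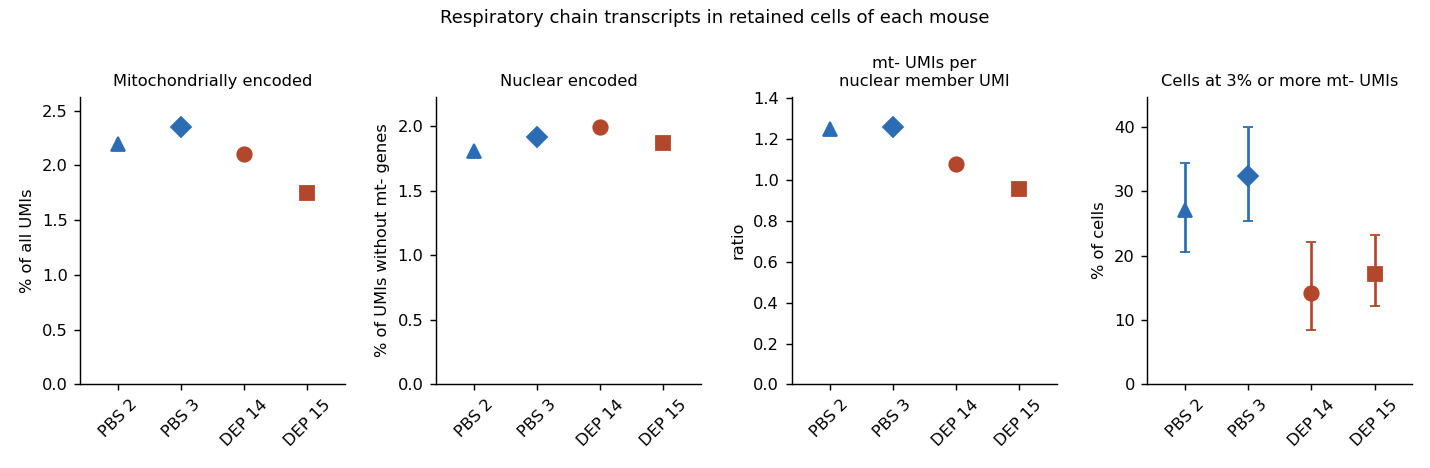
Shares of respiratory chain transcripts in retained cells of each mouse: mitochondrial genes as % of all UMIs, nuclear members as % of UMIs without mt- genes, their ratio, and the % of cells at 3% or more mitochondrial UMIs with exact 95% binomial intervals. Both DEP mice lie below both PBS mice in mitochondrial share, ratio and % of cells (14.3% and 17.2% against 27.1% and 32.4%), and the groups overlap in nuclear share.

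Gene by gene, no member passed the test between DEP and PBS. Counts were summed per mouse and tested with edgeR's quasi-likelihood test, called at a Benjamini-Hochberg adjusted p under 0.05 over all genes tested. Of 5114 genes, 20 were called (0.391%, 0.235% higher and 0.156% lower in DEP), and of the 91 members tested 0, as with DESeq2. The other 7 members were found in under 5% of cells. An unadjusted p under 0.05 was reached by 7 members, 5 of them mitochondrial and lower in DEP and 2 nuclear and higher, against 8.33% of all genes. The 12 mitochondrial genes tested all had negative log2 fold changes, from -0.14 to -0.41 with a median of -0.30, against a median of -0.01 for all genes. Over all 943 cells they were again all negative but smaller, from -0.09 to -0.26 with a median of -0.18, and over the 910 cells the median was -0.21. For mt-Atp6 the value moved from -0.31 to -0.19 over all 943 cells, for mt-Nd5 from -0.41 to -0.20, for mt-Atp8 from -0.38 to -0.17 and for mt-Cytb from -0.21 to -0.11. For 9 of the 12, both DEP mice lay below both PBS mice, which held for 20% of all genes tested. These genes come from the same 4 libraries and are not independent observations.

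The most abundant of them illustrate the spread. For mt-Co1 the levels were 4125 and 3539 CPM in DEP mice 14 and 15 and 4663 and 5136 CPM in PBS mice 2 and 3. The DEP values were the lower ones without overlap, and the log2 fold change was -0.36 (SE 0.12, edgeR adjusted p = 0.329). For mt-Atp6, 5211 and 4268 CPM in DEP stood against 5764 and 6017 CPM in PBS (log2 fold change -0.31, SE 0.12, edgeR adjusted p = 0.448). Mt-Co3, with 3983 and 3084 CPM against 4149 and 4113 CPM, and mt-Nd1, with 1780 and 1504 against 2027 and 1950 CPM, had the same order. In mt-Nd4 the groups overlapped, with 1015 and 830 CPM in DEP and 976 and 1061 CPM in PBS, as they did in mt-Nd3 and mt-Nd4l.

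**Figure D2:**
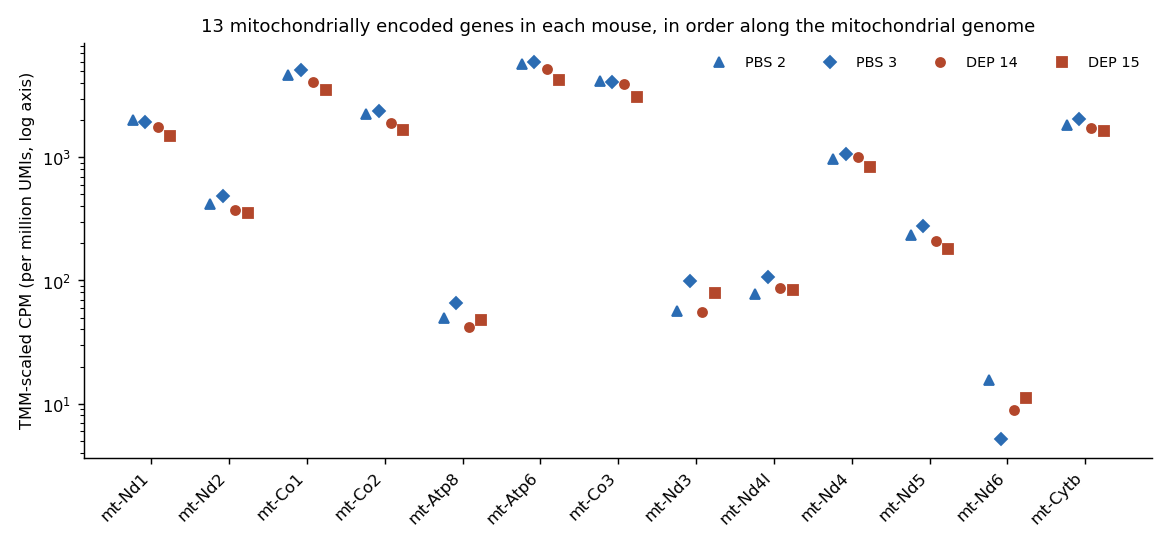
Level of each of the 13 mitochondrial genes in the 4 mice, as TMM-scaled CPM on a log axis, in their order along the mitochondrial genome. Within the 12 genes tested DEP points tend to lie lower, with log2 fold changes of -0.14 to -0.41, while levels between genes span from mt-Nd6 with 24 UMIs to mt-Atp6 with 13061.

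The 79 nuclear members tested were centred near 0, their log2 fold changes running from -0.54 to 0.59 around a median of 0.03. Of these, 46 were above 0 (49% of all genes were). The 2 groups did not overlap in 29 of the 79: DEP was the higher group in 15 (18.8% of all genes) and the lower in 14 (20%). The 5 with the largest fitted differences were Sdhc, which anchors complex II in the membrane (102 and 71.2 CPM in DEP, 63.4 and 50.5 CPM in PBS, log2 fold change 0.59, edgeR adjusted p = 0.549), Cox6b2 (-0.54), the complex II assembly factor Sdhaf2 (-0.51), Atp5g1 (0.44) and Atp5g3 (-0.35). Atp5g1 and Atp5g3 encode the same c subunit and leaned in opposite directions. Atp5g1 had 273 and 253 CPM in DEP against 194 and 194 CPM in PBS, and Atp5g3 93.1 and 88.6 CPM against 132 and 101 CPM, neither past the threshold (edgeR adjusted p = 0.496 and 0.735). By complex the medians lay between -0.004 for complex I and 0.08 for complex II.

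Within the cells under 3% mitochondrial UMIs, and within those at 3% or more, the mitochondrial genes stood closer to 0. The median over them was -0.03 on the log2 scale in both classes, with values from -0.23 to 0.22 among 12 genes in the lower class and from -0.44 to 0.70 among 13 in the upper. The division itself limits the range these genes can take. No member was called in either class. In the lower class 2 of 5199 genes were called (0.0385%, all higher), and in the upper class 10 of 5112 (0.196%, with 0.176% higher and 0.0196% lower). An unadjusted p under 0.05 was reached by 3 nuclear members in the lower class, all higher in DEP (6.42% of all genes), and by 5 in the upper class, 1 higher and 4 lower (6.24% of all genes). Nuclear members lay above 0 in 51 of 79 cases in the lower class (48.5% of all genes) and in 32 of 79 in the upper (46.4%). DEP and PBS mice did not overlap in 24 of them in the lower class, 15 with DEP above (18.1%) and 9 with DEP below (18.6%), and in 30 in the upper class, 11 above (14.3%) and 19 below (21.5%).

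The share of cells with many mitochondrial transcripts was lower in DEP mice. In DEP mouse 14, 16 of 112 cells (14.3%, exact 95% interval 8.39 to 22.2%) stood at 3% or more, and in DEP mouse 15, 34 of 198 (17.2%, 12.2 to 23.2%). In PBS mouse 2 these were 46 of 170 (27.1%, 20.5 to 34.4%) and in PBS mouse 3, 55 of 170 (32.4%, 25.4 to 39.9%). Both DEP mice lay below both PBS mice, with an exact two-sided permutation p of 0.333, the smallest that 2 against 2 mice allow. The intervals cover counting error only, and 92 of the 650 cells lay within 0.5 points of the threshold. Over all 943 cells the shares were 15.3 and 16.5% in DEP against 28.0 and 30.5% in PBS.

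Cell states differed in both the mitochondrial and the nuclear encoded genes. The retained cells were grouped into 4 clusters on 500 variable genes, with the members of the chain left out of the clustering. Cluster 3 (152 cells) had all 12 markers of Ccr2+ monocytes or macrophages above the other clusters pooled and is called Ccr2+-like. Clusters 1 (198 cells), 2 (193 cells, led by Mmp12) and 4 (107 cells, led by Cd163) were all high in the complement gene C1qa and were left unnamed. In the Ccr2+-like cluster nuclear members took 2.21 to 2.38% of non-mitochondrial UMIs per mouse, above each other cluster in every mouse. At the same time it held 0.683 to 0.845 mitochondrial UMIs per nuclear UMI, below each of the other clusters in every mouse. Cluster 1 had 2.19 to 3.28% mitochondrial, the highest of the clusters in mice 15, 2 and 3 but below cluster 2 (2.30%) in mouse 14, and 2.02% nuclear in mouse 15 and 2.19% in mice 2 and 3, and clusters 2 and 4 were low in nuclear members, at 1.57 to 1.68% and 1.53 to 1.68%. In cluster 1, 41.4% of cells stood at 3% or more. There, 12 of 14 macrophage and 12 of 13 resident macrophage markers were above the other clusters pooled. C1qa itself, at 5805 CPM, was below its level in clusters 2 (6188 CPM) and 4 (6388 CPM). Cluster 1 had the highest median mitochondrial share per cell, 2.58%, and a median of 2597 UMIs (2460 to 4936 in the others). None of its leading genes was a listed marker, as in cluster 2. These are descriptions without a test. In comparing DEP with PBS, the paper ignored a cluster of its own as most likely damaged or low-quality cells. The paper's reasons were a higher mitochondrial fraction and no expression of specific markers. Whether cluster 1 or the cells at 3% or more hold such cells was not tested.

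**Figure D3:**
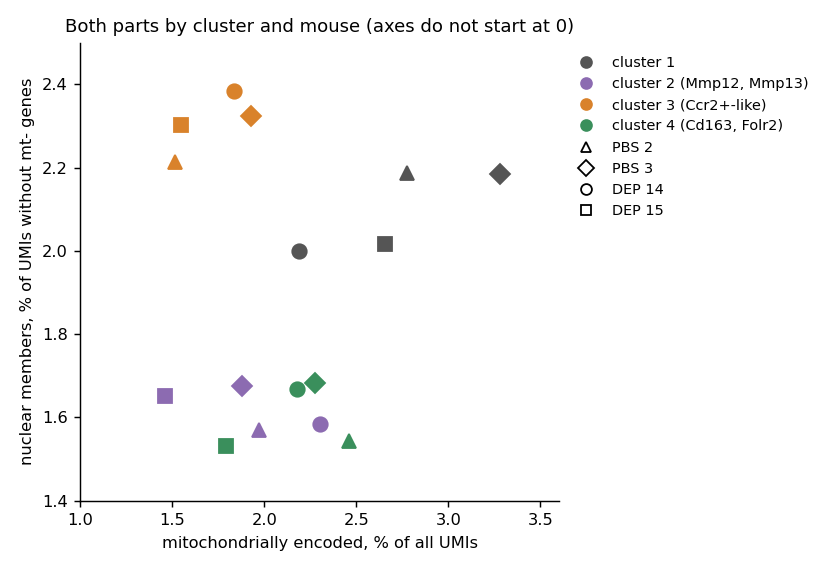
Mitochondrial share of all UMIs (x axis, %) against nuclear members as % of UMIs without mt- genes (y axis), 1 point per cluster and mouse. Ccr2+-like cluster 3 sits at 2.21 to 2.38% nuclear and 1.52 to 1.93% mitochondrial, and cluster 1 reaches up to 3.28% mitochondrial.

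Set against all other retained cells of the same mouse, 44 of 79 nuclear members were higher in the Ccr2+-like cluster in all 4 mice, against 23.8% of all genes without mt-, and 2 were lower, against 13.3%. Cox4i1, for example, had 1225 CPM there and 714 to 984 CPM in the other clusters, Atp5l 1080 CPM against 555 to 866 CPM, and the Rieske iron-sulfur subunit Uqcrfs1 231 CPM against 111 to 136 CPM. Ndufc2, an accessory subunit of complex I, and Cox6b2 went the other way in all 4 mice. Of the mitochondrial genes 10 of 13 were lower in this cluster in all 4 mice, the others being mt-Atp8, mt-Nd4 and mt-Nd5, which were lower in 3. Cluster 3 held 42 of 112 and 60 of 198 cells in the DEP mice and 19 of 170 and 31 of 170 cells in the PBS mice, and it is the cluster with the fewest mitochondrial UMIs per nuclear one. DEP and PBS mice thus differed both in mitochondrial share and in the makeup of the cells. Within each group, however, the mouse with the larger part of its cells in cluster 3 had the higher mitochondrial share. These were 2.10% in mouse 14 against 1.75% in mouse 15, and 2.35% in mouse 3 against 2.20% in mouse 2. Within clusters, both DEP mice were below both PBS mice in mitochondrial share in clusters 1 and 4, and the groups overlapped in clusters 2 and 3. How much of the difference the makeup carried was not tested.

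In cells at 3% or more mitochondrial UMIs, nuclear encoded respiratory genes took a larger share of the other transcripts. Nuclear members took 2.18% (mouse 14), 2.12% (mouse 15), 2.12% (mouse 2) and 2.14% (mouse 3) of non-mitochondrial UMIs in these cells, and 1.97, 1.84, 1.69 and 1.83% in cells under 3%. The upper class was higher in 4 of 4 mice and its values did not overlap with those of the lower class. Counted per cell rather than as a share, nuclear member UMIs averaged 65.4, 47, 74.9 and 81.1 in the upper class of mice 14, 15, 2 and 3. In the lower class they averaged 78.7, 60.2, 57.4 and 88.2, so that the upper class was higher in mouse 2 only. Its cells held fewer UMIs in all by the median in every mouse, though not by the mean in mouse 2. The mean difference in share was 0.310 ± 0.0932 points (SD, n = 4 mice, range 0.212 to 0.435), and 0.575 over all 943 cells. It rested on complexes I, III, IV and V, each higher in 4 of 4 mice, whereas complex II was higher in 3 of 4. Cluster 1 made up 54.3% of the upper class and 23.2% of the lower. Within clusters the upper class was higher in 4 of 4 mice in clusters 1 (2.36 against 1.94%) and 4 (1.95 against 1.49%), in 3 of 4 in cluster 2 (1.72 against 1.61%) and in 2 of 4 in the Ccr2+-like cluster, where the shares were 2.33 and 2.32%.

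**Figure D4:**
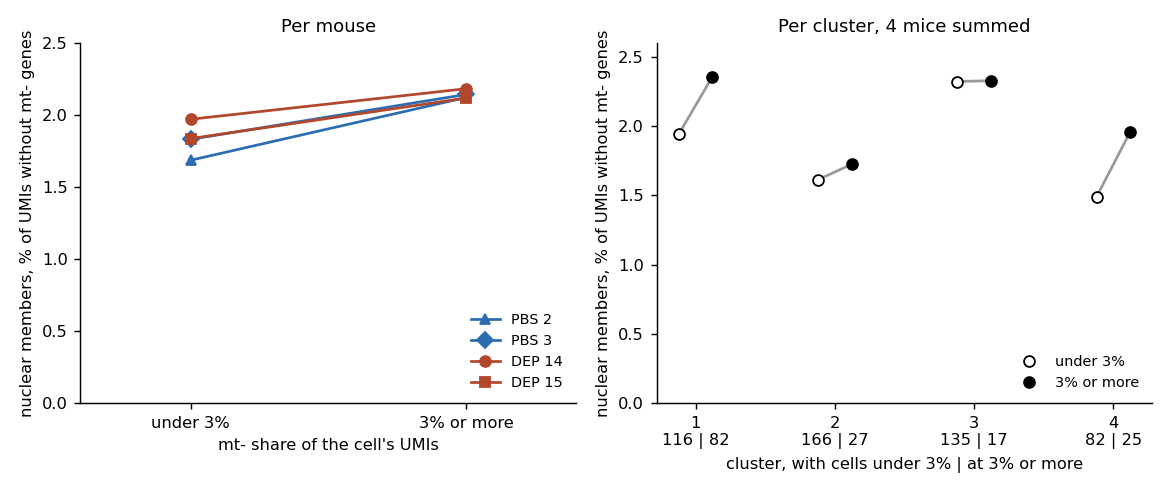
Nuclear members as % of UMIs without mt- genes in cells under 3% and at 3% or more mitochondrial UMIs, per mouse (left, lines join the classes of 1 mouse) and per cluster over all mice (right, with the number of cells in each class below). All 4 lines rise, to 2.12 to 2.18%, while in Ccr2+-like cluster 3 the points lie at 2.32 and 2.33%.

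For single genes the classes were compared over 8 sums, 2 per mouse, with the mouse as a block and mt- genes removed before library sizes. Among 5102 genes edgeR's quasi-likelihood test called 263 (5.15%), 110 higher in the upper class (2.16%) and 153 lower (3%). Of the 79 nuclear members 4 were higher and none lower, while 15 and 7 had an unadjusted p under 0.05 (16% of all genes). Their median log2 fold change was 0.12, against -0.05 for all genes, and 53 of 79 were above 0 (45.6% of all genes were). Without the filter on low counts the median of these members turned to -0.0859 and none was called higher, while that of the same 5102 genes moved to -0.25, so that the members stayed above it. In 18 members the upper class was higher in all 4 mice, against 8.94% of all genes, and in 7 it was lower in all 4, against 15.6%.

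Ndufa5, an accessory subunit in the matrix arm of complex I, had 221, 156, 163 and 140 CPM in the upper class of mice 14, 15, 2 and 3, and 81.7, 90.3, 102 and 87.0 CPM in the lower class. The classes did not overlap (log2 fold change 0.83, SE 0.23, edgeR adjusted p = 0.0125). Mice 14 and 15 held 43 and 60 UMIs of Ndufa5 over both classes, with 16 and 34 cells in the upper class. Their upper-class levels thus rest on few UMIs. Ndufa11, a membrane subunit of the same complex, had 221, 108, 176 and 220 CPM against 126, 99.9, 104 and 115 CPM, higher within each mouse though overlapping between mice (log2 fold change 0.72, SE 0.22, edgeR adjusted p = 0.0238). The small complex III subunit Uqcr11 reached 294, 397, 376 and 489 CPM against 306, 244, 244 and 320 CPM. It was higher in mice 15, 2 and 3 only (log2 fold change 0.53, SE 0.16, edgeR adjusted p = 0.0271). Atp5j2, the f subunit of the ATP synthase membrane part, had 478, 409, 514 and 479 CPM against 364, 361, 282 and 371 CPM, without overlap (log2 fold change 0.47, SE 0.15, edgeR adjusted p = 0.0467). These calls were fragile: DESeq2 called none of the 4 (adjusted p 0.111 to 0.24), and none was called without PBS mouse 2 or at a threshold of 4%. Without PBS mouse 3 the call remained for Ndufa5, without DEP mouse 15 for Ndufa5, Ndufa11 and Atp5j2, and without DEP mouse 14 for Ndufa11 and Uqcr11. Over all 943 cells 16 members were called higher, and over the 910 cells 9. The share of all genes called in these settings is not given here, so these counts stand without a background.

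**Figure D5:**
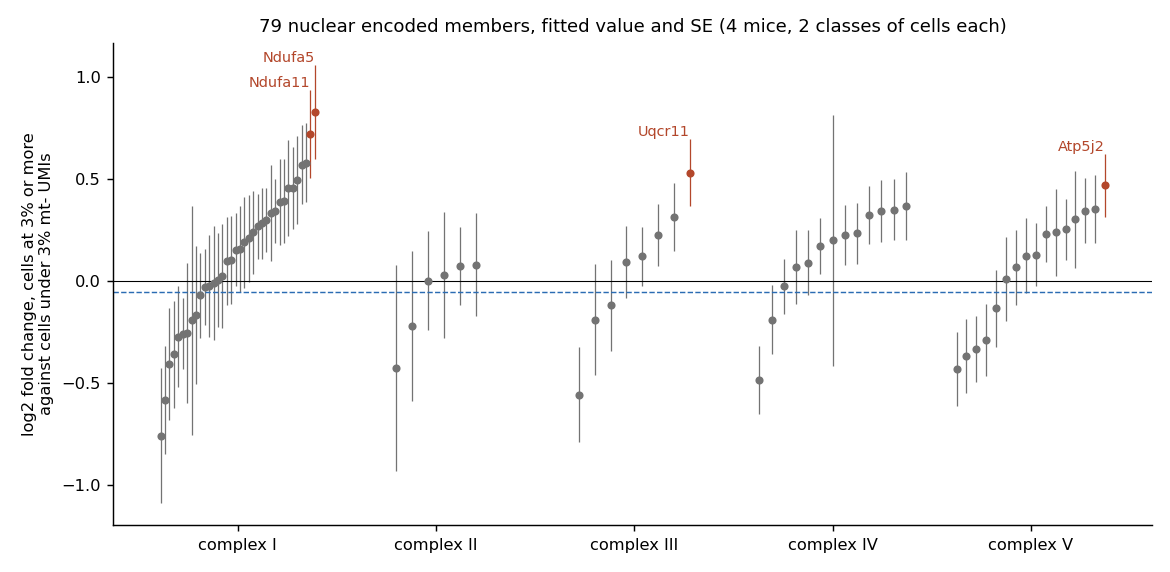
Fitted log2 fold change with SE of the 79 nuclear members tested, cells at 3% or more against under 3% mitochondrial UMIs, ordered within each complex. Red marks the 4 with an adjusted p under 0.05 and the dashed line the median of all 5102 genes, -0.05, and 53 of the 79 points lie above 0 (without the filter on low counts the median of the 79 turned to -0.0859).

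Other members leaned without passing the threshold. Ndufb7 of complex I (log2 fold change 0.58, SE 0.19, edgeR adjusted p = 0.0524) leaned up, and the complex I subunits Ndufa9 (-0.76) and Ndufs5 (-0.58) down. Of the related genes Cox7a2 and Cox7a2l, the former stood at 0.37 and the latter at -0.48. In numbers, Cox7a2l had 147, 205, 357 and 390 CPM in the upper and 395, 327, 450 and 458 CPM in the lower class of mice 14, 15, 2 and 3, lower within each mouse (edgeR adjusted p = 0.0636). Without a filter on low counts it was the 1 member called lower, at an adjusted p of 0.0206. By complex the median log2 fold change was 0.16 for complex I, 0.02 for complex II, 0.11 for complex III, 0.20 for complex IV and 0.13 for complex V.

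Several other features moved with the division of cells. Cells of the upper class had fewer UMIs (medians of 1849 to 2978 per mouse against 2651 to 4629), held 4.35 to 18.8% Ccr2+-like cells against 13.7 to 40.6%, and 10 of 11 Ccr2+ markers tested fell, their summed level running from 1759 to 4413 CPM against 3957 to 8864 CPM. Without the Ccr2+-like cluster the median of the members was 0.19 and 3 were called higher, Ndufa1, Ndufa5 and Ndufa11. The part of depth in the difference was not tested. With every cell thinned to 1000 UMIs, the nuclear share still differed by 0.248 points and Ndufa5 alone was called.

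The mitochondrial genes define the classes and are described without a test. Mt-Atp6 stood at 11240, 10180, 10630 and 10520 CPM in the upper class of mice 14, 15, 2 and 3 and at 4574, 3475, 3651 and 4190 CPM in the lower. The ratio was 2.46 to 2.93 for mt-Atp6 and 2.52 to 3.12 for mt-Co1, but 1.93 to 2.67 for mt-Nd4. Within the mitochondrial UMIs, mt-Nd4 took a lower share in the upper class in 4 of 4 mice, by 0.559 points on average from a mean of 4.64%, and mt-Nd3 did so too. Complex I genes together took 16.2 to 16.8% in the upper and 17.1 to 18.2% in the lower class, lower in 4 of 4 mice. Across cells of a mouse, mitochondrial and nuclear shares correlated weakly (Pearson's r 0.169 to 0.298 over 112 to 198 cells, 0.0757 to 0.311 after thinning), a description of cells that share a library and depth.

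The promoters of the 4 members called between the classes were examined for sequence motifs known from nuclear respiratory genes. Windows of 250 bases before the start were available for 69 of the 98 members and for 32851 starts in all (RefSeq, GRCm38.p6). The motifs, searched on both strands, were the core of NRF1 (GCGCATGC), the core of ETS factors such as GABP (CCGGAAG) and that of YY1 (AAGATGGC). At least 1 was present in 20 of the 69 members (29%), against 10.2% of all windows, with NRF1 in 8 (11.6% against 2.26%), ETS in 14 (20.3% against 6.91%) and YY1 in 1 (1.45% against 1.56%). A member counted when any of its windows matched (74 windows for the 69 members), whereas the background was counted per window. Of the 4 called genes, Ndufa11 held overlapping NRF1 matches on both strands and Uqcr11 an ETS match, in capitals in the windows below, and the windows of Ndufa5 and Atp5j2 held none of these letters. They are shown because they carry the matches among the called genes.
Ndufa11, chr17:56717512-56717761, plus strand: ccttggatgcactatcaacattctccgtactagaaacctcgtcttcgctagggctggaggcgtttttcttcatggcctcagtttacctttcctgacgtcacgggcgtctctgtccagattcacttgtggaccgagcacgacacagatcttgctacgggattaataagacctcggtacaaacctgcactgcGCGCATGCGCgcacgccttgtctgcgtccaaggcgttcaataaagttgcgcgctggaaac
Uqcr11, chr10:80406822-80407071, minus strand: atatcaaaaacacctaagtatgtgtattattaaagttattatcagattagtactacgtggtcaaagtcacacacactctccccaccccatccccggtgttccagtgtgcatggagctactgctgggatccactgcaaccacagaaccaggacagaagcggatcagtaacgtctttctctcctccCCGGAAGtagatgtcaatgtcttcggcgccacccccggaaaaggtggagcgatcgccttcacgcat
A match describes the letters only and says nothing of binding in these cells.

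Neighbouring pathways were read from lists next to the same backgrounds. Between DEP and PBS none of the genes tested was called among 23 assembly factors of the complexes, 14 other respiratory and ATP export genes, 7 genes of mitochondrial gene expression, 3 nuclear regulators, 18 genes of the tricarboxylic acid cycle, 17 of glycolysis, 20 of dissociation stress, 3 nuclear retained RNAs, 69 of the mitochondrial and 87 of the cytosolic ribosome. Their medians lay between -0.15 for the nuclear retained RNAs and 0.34 for glycolysis, where Eno1 had a log2 fold change of 0.53 and Pfkp one of 1.10. Among markers, 4 of 11 Ccr2+ genes rose in DEP (Plac8, Ifitm3, Tmsb10 and Ly6c2), Apoe, which is on both the macrophage and the Ccr2- resident list, fell, and Igkc rose by 1.35 on the log2 scale. The B or plasma list as a whole summed to 498 to 753 CPM in DEP and 376 to 399 CPM in PBS mice. Cells with 3 or more markers of this list, which includes Igkc, had been left out, more of them in DEP mice. These values therefore describe only what remained after that selection. Of the T, NK, stromal, neutrophil and dendritic lists 1 gene each was tested, with none called, and no epithelial or mast cell gene reached the filter.

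Between the classes the neighbouring pathways did not all lean the way of the nuclear subunits, beside backgrounds of 2.16% of all genes called higher and 3% lower. Of 17 glycolysis genes 4 fell in the upper class, the enzymes Eno1, Aldoa, Pkm and Ldha (log2 fold changes of -0.81, -0.71, -0.67 and -0.67), and the hexokinase Hk2 rose by 0.93. In the tricarboxylic acid cycle Mdh2 (-0.78) and Idh3g (-0.97) fell, with a list median of -0.28 over 18 genes. Slc25a5, which exchanges ADP for ATP across the inner membrane, fell by 0.62 on the log2 scale, as 1 of 14 other respiratory genes. Of 69 mitochondrial ribosome genes 2 rose, Mrpl13 (1.49) and Mrps33 (0.68), a share near that background, and the regulator Yy1 rose by 1.42 among 3 tested. No assembly factor of 23 passed the test, nor did any of 7 genes of mitochondrial gene expression, whose median was -0.51. Cytosolic ribosome genes went both ways, 4 up and 6 down of 87, and so did dissociation stress genes, with Jund (1.66) and Egr1 (0.58) up and 6 heat shock and early genes such as Dnajb1 (-1.17) down, of 20. None of the 3 nuclear retained RNAs was called, with a median of 0.14, but their summed level was higher in the upper class in 4 of 4 mice without overlap (26560 to 34490 against 23110 to 25730 CPM), and its part in the other differences was not tested. Of the resident macrophage list Pf4 (1.57) and Mrc1 (0.90) rose and Cd72 (-0.60) fell, of the macrophage list Cx3cr1 (0.85) rose and Lyz2 (-0.76) fell, and Cd4 (1.06) rose as the 1 T cell gene tested. B or plasma, NK, stromal, neutrophil and dendritic genes were not called, with 5 B or plasma genes and 1 of each other list tested. The dendritic list as a whole summed to 229, 318, 111 and 235 CPM in the upper class of mice 14, 15, 2 and 3 against 151, 151, 97.1 and 115 CPM in the lower, and the T cell list to 53 to 105 against 33.2 to 60.0 CPM, each higher in 4 of 4 mice. Their part in the other differences was not tested.

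Whether the effect of DEP differed between the classes was tested with an interaction term. It was called for 2 of 5102 genes (0.0392%, both lower in the upper class), neither of them a member. Among the 79 nuclear members 9 had an unadjusted p under 0.05, 8 with a lower effect in the upper class and 1 with a higher one (5.84% of all genes). Their median interaction was -0.27 on the log2 scale against -0.13 for all genes, and 23 of 79 lay above 0 (42.5% of all genes).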

How the data were processed

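UMI counts per gene and cell were measured in 4 libraries (Single Cell 3′ v2 kit). Per the paper's methods and the labels, the authors aligned reads to mm10 with Cell Ranger and STAR 2.6.1a, filtered cells by depth and mitochondrial share, found no suspicious doublets and deposited raw counts, which carry no normalization. Mice were sorted in a single batch. Cells were assigned to mice by the suffix of their names, and gene identifiers were given symbols from GENCODE (20 of 12596 had none). No further doublet caller was run.

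Counts were summed per mouse, or per mouse and class of cells, and genes above 1 CPM in at least 2 libraries and present in at least 5% of cells were tested with edgeR 4.0.16 in R 4.3.3 (TMM, quasi-likelihood test, Benjamini-Hochberg). DESeq2 1.42.0 was the alternative. In the comparison of the classes edgeR estimated the same spread for all genes (infinite prior degrees of freedom). Clusters came from scran 1.30.0, 24 principal components and Ward's criterion. Scripts were tested on simulated data. Named genes were all mt- members, members past the threshold, and the 5 nuclear members with the largest fold change in each main comparison. Also named were the 2 highest of each complex, alternative forms and related copies, and genes of the other lists that passed or had the smallest p. Members, lists and tests were chosen with earlier results of these data known. For DEP against PBS, p-values rest on 2 mice per group and on a spread largely borrowed across genes. Over all retained cells the prior degrees of freedom were 18.06. Within the upper class, p-values for DEP against PBS match a spread that all genes share. How far the mice differed for a single gene thus entered these p-values little or not at all. Between the classes, p-values cover a spread within 4 mice that all genes share.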

Additional observations from a re-analysis of the deposited data

Results flagged for a closer look

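A different effect of DEP in cells at 3% or more and cells under 3% mitochondrial UMIs was called for 2 genes outside the respiratory chain. The call came from the interaction term of edgeR's quasi-likelihood test over 5102 genes. That test used a spread that all genes share, so how far the mice differed for a single gene did not enter its p-value. For Ccl5, a chemokine gene, the DEP effect was lower in the upper class by -3.911 on the log2 scale (SE 0.758, adjusted p = 0.00128), with 0, 25.1, 230 and 4.75 CPM in the upper class of mice 14, 15, 2 and 3 and 440, 125, 233 and 19.7 CPM in the lower. Of the PBS mice only mouse 2 kept its level in the upper class, while mouse 3 was lower there too. The upper-class sums of mice 14, 15, 2 and 3 held 50196, 78754, 169344 and 217035 UMIs. Values such as 4.75 and 25.1 CPM therefore rest on very few UMIs. For Il1b, the gene of interleukin-1β, the difference was -0.851 (SE 0.188, adjusted p = 0.0151), with 1802, 1868, 3510 and 3384 CPM in the upper class and 3178, 4348, 5209 and 3329 CPM in the lower. At a threshold of 2% neither was called.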

How the results depend on the processing

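Counts of calls over all genes moved strongly with the settings, and the cause was not tested. Between DEP and PBS (20 called), DESeq2 gave 2, no filter on low counts 76, and all deposited cells, cells thinned to 1000 UMIs, and the 910 cells kept without immunoglobulin markers (chosen after seeing the data) 1 each, with 0 to 59 when 1 mouse was left out. In cells under 3% (2 called) these were 1 with DESeq2, 52 without a filter, 0 in all deposited and in the 910 cells, and 16 to 49. In cells at 3% or more (10 called) they were 1 with DESeq2, 5 in all deposited cells, 0 after thinning and in the 910 cells, and 0 to 24. Between the classes (263 called), DESeq2 gave 75, thinning 72, a threshold of 4% 109, no replicate block 123 and cells outside the Ccr2+-like cluster 156, with 133 to 212 when 1 mouse was left out. Members called higher there (4) were 0 with DESeq2, without a filter and at 4%, 1 after thinning and without the block by mouse, 16 in all deposited and 9 in the 910 cells, and 0 to 4 when 1 mouse was left out, and members called lower (0) were 1 without a filter and 0 to 1. For all deposited and the 910 cells the counts over all genes between the classes are not given here. The interaction (2 called) gave 0 at a threshold of 2% and 7 in all deposited cells. The DEP minus PBS difference in nuclear share turned to -0.0157 points in all deposited and -0.0153 in the 910 cells, that in the share of cells at 3% or more shrank from -13.98 to -10.3 points after thinning and to -5.37 at 4%, and the nuclear share difference between the classes was 0.575 points in all deposited cells.

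Signs turned for mt-Atp8 after thinning (0.21), and when 1 mouse was left out for mt-Nd4 (-0.30 to 0.0031), mt-Nd3 (-0.52 to 0.28), mt-Nd4l (-0.34 to 0.14) and Cox6b2 (-0.74 to 0.22). The nuclear median between DEP and PBS was -0.0526 after thinning, -0.0297 in the 910 cells and -0.0284 to 0.0675 when 1 mouse was left out, and that between the classes -0.0859 without a filter. The mitochondrial share difference stayed negative, from -0.170 to -0.524 points when 1 mouse was left out. No paired analysis of DEP against PBS was possible, because each mouse received 1 treatment and no pairs of mice are described. Both classes come from the same mice, hence the block by mouse. With 2 mice per group, and 16 cells in the smallest class, small differences were not detectable.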
